A study of Mus musculus with 12 samples.

Results

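Mouse brain tumours driven by the fusion YAP1-TFE3 were compared with naive cortex, and the comparison used 6 of the 12 RNA libraries of the series. The libraries were taken by their titles, 3 named YAP1-TFE3 and 3 named naive, and every gene of their deposited count files entered the test. The tumours arose after RCAS viruses that carried the fusion were injected into the brain, and the samples are labelled as whole tumour tissue. RCAS is an avian retroviral vector that enters mouse cells only where these carry its avian receptor. The naive cortex had received no injection. The other 6 libraries came from tumours made in the same way with 2 other fusions of YAP1, YAP1-MAMLD1-dR3R1 and YAP1-FAM118B (3 libraries each). They served as a reference for what set the YAP1-TFE3 tumours apart.

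Several features limit these groups as a model. No injected control without the fusion was analysed here, so that the fusion, the virus and the injection cannot be told apart. The sources used here do not give the host strain, its genotype, the promoter that drove the virus receptor, the age of the mice or the number of animals. The labels do not say that the replicates came from separate animals, and the p-values therefore measure the spread between these libraries, which may in part be technical. One label names the naive tissue a brain tumour while the others name it normal cortex, and the extraction text speaks of cultured cells while the design speaks of frozen tumours. Naive replicate 2 held both the female transcript Xist (0.0411, 25.6 and 305 CPM in naive replicates 1, 2 and 3) and the Y-linked Ddx3y (62.9, 49.3 and 0.04399 CPM). These sex-linked genes were looked at after their values were seen. Whether that library held RNA of more than 1 animal was not tested, and the count of changed genes is given with and without it.

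As background, YAP1 is a co-activator that binds no DNA itself and works through the TEAD transcription factors, while the kinases of the Hippo pathway keep it out of the nucleus. TFE3 belongs with MITF, TFEB and TFEC to the MiT/TFE family of basic helix-loop-helix leucine zipper factors, which bind the E-box and are known for genes of lysosomes, autophagy, mitochondria and pigment cells. Signalling from mTORC1 and folliculin normally holds TFE3 in the cytoplasm. Fusions of TFE3 occur in renal cell carcinoma, alveolar soft part sarcoma and perivascular epithelioid cell tumours, and YAP1-TFE3 occurs in a subset of epithelioid haemangioendothelioma.

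Between 21247000 and 24760814 reads were counted on genes in each of these 6 libraries. Levels are given as CPM (counts per 1000000 counted reads) on library sizes scaled by the trimmed mean of M values (TMM), in the order of replicates 1, 2 and 3; they depend on transcript length and are not compared between genes. Changes are log2 fold changes, YAP1-TFE3 over naive, with their standard error (SE), and a gene was called where the Benjamini-Hochberg adjusted p of edgeR's quasi-likelihood test over all 16364 genes tested was under 0.05. By this measure 11547 genes (70.6%) differed, of which 6641 (40.6%) were higher and 4906 (30.0%) lower in the tumours. The libraries of the groups did not overlap for 11293 of the called genes; over all genes tested, 42.5% had every tumour library above every naive library and 33.2% every one below. At least 16-fold differences were found for 1165 higher and 1105 lower genes. Without naive replicate 2, 10597 genes were called. The median log2 difference of all genes tested was 0.23, and it was 0.03 with no scaling beyond the library size, so that small differences depend on the scaling. With so large a share of all genes called, a list below is read against these percentages. Gla, Smpd1, Atp6v1a, Gabarapl2, Atp5b, Cox7a1, Esrrb, Wwc1, Wwc2, Fjx1, Col1a1, Adamts20, Myl9 and Chrd were named after their values were seen, and the others by a rule. The tumours fell below naive cortex for most of the lists of neurons and myelin and above it for lysosomal hydrolases, pigment genes, cell division and immune cells, as the plot of changes by gene list shows.

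**Figure D1:**
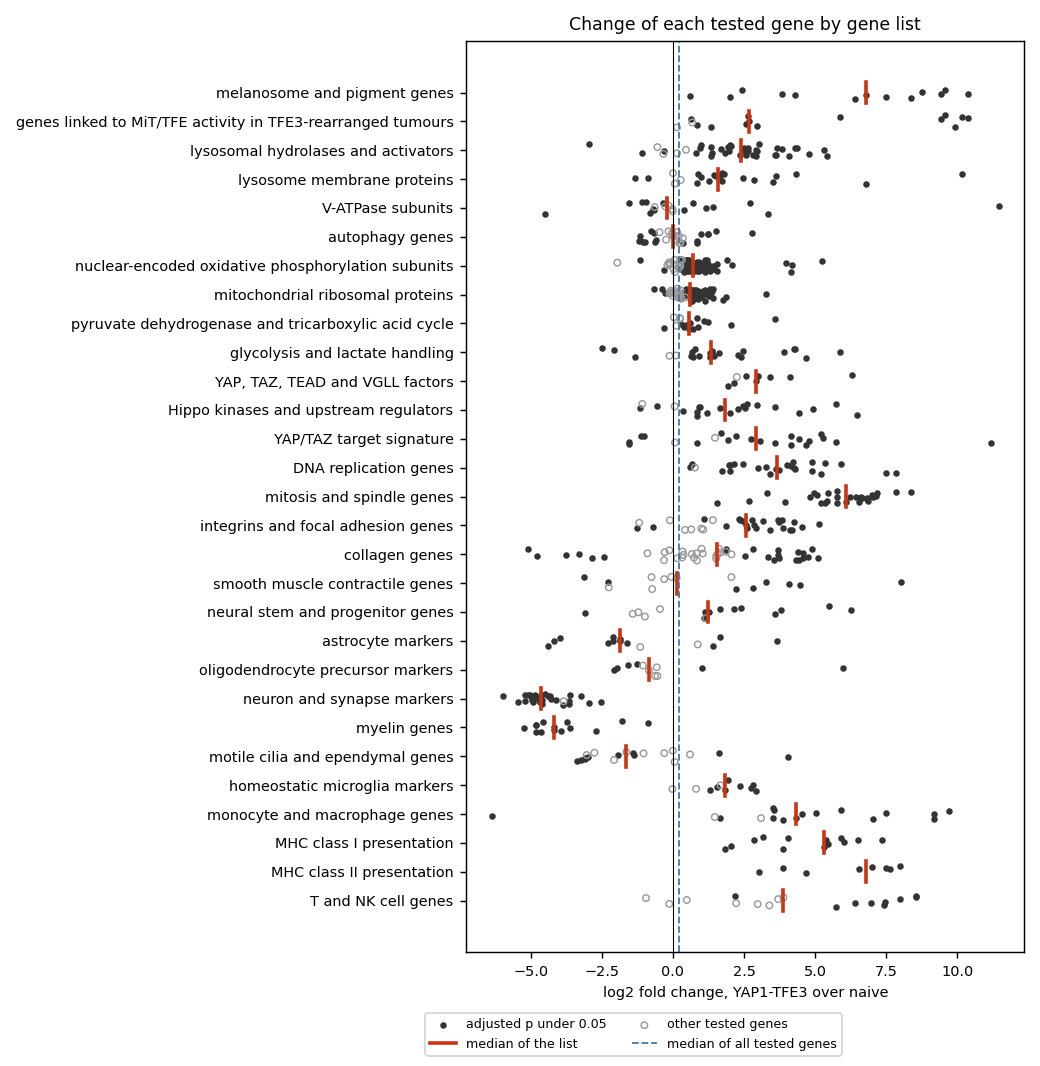
Log2 fold change of each tested gene, YAP1-TFE3 over naive, on the horizontal axis, by gene list; filled points are genes with an adjusted p under 0.05, open points the other tested genes, red bars the median of each list and the dashed line the median of all genes tested. The median of the mitosis list lies at 6.09 and that of the neuron list at −4.63, beside 0.23 over all genes tested.

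The label of the tissue was checked on cell type markers. Summed over the 30 neuronal genes, the naive libraries held 22369.6, 20064 and 16426 CPM and the tumours 351, 2262 and 412 CPM. Neuronal RNA was thus largely, but not wholly, absent from the tumours, and replicate 2 kept the most. In whole tissue, fewer cells of a type and less RNA per cell cannot be told apart. The naive libraries were not of 1 composition either: transthyretin (Ttr), a product of the choroid plexus, stood at 2.34, 67.5 and 1589 CPM and the hypothalamic peptide gene Hcrt at 0.164, 1.55 and 42.98 CPM. Both were highest in naive replicate 3.

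Genes that mark TFE3 activity in other tumours rose. Tfe3 itself (chromosome X, 7762530 to 7775202, GRCm38) stood at 44.7, 38.96 and 35.5 CPM in naive cortex and 155, 115 and 108 CPM in the tumours. The groups did not overlap and the log2 difference was 1.66 ± 0.18 (edgeR adjusted p = 3.21e-05). Whether reads of the virus-borne fusion were counted on Tfe3 or Yap1 was not tested. Gpnmb (chromosome 6, 49036518 to 49058182), a transmembrane glycoprotein of lysosomes and melanosomes and a marker of TFE3 tumours, had 12.1, 5.15 and 3.96 CPM in naive cortex and 6069, 8766 and 9479 CPM in the tumours. The log2 difference was 10.16 ± 0.797 (edgeR adjusted p = 4.53e-06), with no overlap. Trim63 (chromosome 4, 134315120 to 134329629) encodes a muscle ubiquitin ligase that is used as a marker of renal carcinomas with TFE3 or TFEB changes. It rose from 0.246, 0.209 and 0.176 CPM to 238, 135 and 76.1 CPM, a log2 difference of 9.43 ± 0.68 (edgeR adjusted p = 2.85e-06). Trim63 was also higher than in the YAP1-MAMLD1-dR3R1 tumours (3 counts in all; count ratio 3414, 95% counting interval 1168 to 16558) and the YAP1-FAM118B tumours (0.166 ± 0.151 CPM, SD, n = 3; log2 difference 9.73 ± 0.698). The stress cytokine gene Gdf15 rose from 0.78004, 0.209 and 0 to 458, 296 and 246 CPM, and every tumour library lay far above every naive library. Bsg (chromosome 10, 79704358 to 79711979), the chaperone of lactate transporters, rose from 349, 363 and 408 to 12042, 9060.5 and 7924 CPM, and it too was higher than in the YAP1-MAMLD1-dR3R1 (4.46 ± 0.24) and YAP1-FAM118B tumours (4.196 ± 0.24). Of the 15 tested genes linked to TFE3 tumours and targets, 13 were higher and 0 lower (median log2 difference 2.68, against 0.23 over all genes).

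**Figure D2:**
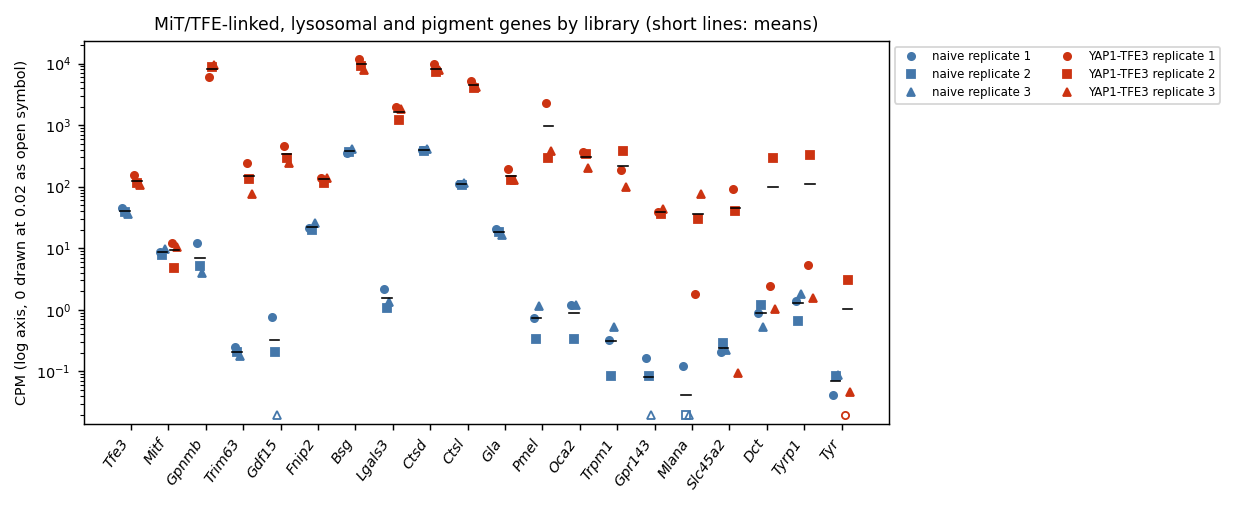
Level of MiT/TFE-linked, lysosomal and pigment genes in each library, in CPM on a log axis; points are single libraries (blue naive, red YAP1-TFE3, symbol by replicate), short lines are means, and 0 is drawn open at 0.02. The 3 YAP1-TFE3 libraries lie above the 3 naive libraries for Gpnmb (6069, 8766 and 9479 CPM against 12.1, 5.15 and 3.96 CPM).

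The promoters of 5 genes whose levels are described here are printed to show which E-box and TEAD sequences they hold; they were picked after the values and the motif matches were seen. Each runs from 250 bases before to 50 bases after the start site of the RefSeq transcript in GRCm38.p6, 5′ to 3′ on the gene's strand, with motif matches on either strand in capitals. The motifs searched were CACGTG, the E-box of the lysosomal CLEAR element, TCATGTG, the M-box of pigment genes, and GGAATG, the core of the TEAD site; CACGTG reads alike on both strands and overlaps neither of the others. Trim63 holds GGAATG 80 bases and TCATGTG 51 bases before the start.
Trim63, chr4:134314870-134315169, + strand: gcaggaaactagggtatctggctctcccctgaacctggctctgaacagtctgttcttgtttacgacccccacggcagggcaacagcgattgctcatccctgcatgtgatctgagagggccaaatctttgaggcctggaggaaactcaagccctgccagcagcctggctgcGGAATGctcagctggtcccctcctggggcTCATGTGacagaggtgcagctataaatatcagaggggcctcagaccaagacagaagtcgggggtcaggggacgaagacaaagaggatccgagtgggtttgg
Trpm1, chr7:64153585-64153884, + strand: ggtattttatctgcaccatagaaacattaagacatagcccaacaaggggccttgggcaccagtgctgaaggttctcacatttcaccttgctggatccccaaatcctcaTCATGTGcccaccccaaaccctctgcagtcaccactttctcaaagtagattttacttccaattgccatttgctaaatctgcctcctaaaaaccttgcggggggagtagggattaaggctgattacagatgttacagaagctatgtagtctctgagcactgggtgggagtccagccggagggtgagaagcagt
Ctsd, chr7:142387778-142388077, - strand: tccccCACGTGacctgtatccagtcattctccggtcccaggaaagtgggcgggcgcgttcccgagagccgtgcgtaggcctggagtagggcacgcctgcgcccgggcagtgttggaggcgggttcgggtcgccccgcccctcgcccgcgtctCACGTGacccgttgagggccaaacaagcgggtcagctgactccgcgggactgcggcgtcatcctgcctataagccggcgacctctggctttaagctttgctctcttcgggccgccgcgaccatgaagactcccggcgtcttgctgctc
Gla, chrX:134600956-134601255, - strand: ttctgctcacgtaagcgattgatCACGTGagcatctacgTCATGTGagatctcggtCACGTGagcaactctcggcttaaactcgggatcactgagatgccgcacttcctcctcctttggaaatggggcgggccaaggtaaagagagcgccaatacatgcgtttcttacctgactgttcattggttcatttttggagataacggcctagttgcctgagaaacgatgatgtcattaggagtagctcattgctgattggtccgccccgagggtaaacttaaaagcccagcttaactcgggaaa
Ankrd1, chr19:36119795-36120094, - strand: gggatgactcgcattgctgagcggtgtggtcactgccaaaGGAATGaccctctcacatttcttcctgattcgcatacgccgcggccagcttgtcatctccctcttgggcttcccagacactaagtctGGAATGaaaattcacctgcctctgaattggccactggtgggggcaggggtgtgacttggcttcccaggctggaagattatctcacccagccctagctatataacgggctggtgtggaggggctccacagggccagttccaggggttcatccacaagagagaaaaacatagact
Trpm1, of which 1 of 2 windows is shown, holds TCATGTG 142 bases before the start. Ctsd holds CACGTG at 245 and 98 bases before it. Gla holds CACGTG at 227 and 194 bases and TCATGTG at 211 bases before it. Ankrd1 holds GGAATG at 210 and 123 bases before it. Over the 27025 gene symbols with a window, 8.09% held CACGTG, 4.31% TCATGTG and 16.6% GGAATG. Among lysosomal hydrolases, 11 of 34 matched symbols (32.4%) held CACGTG and 6 (17.6%) TCATGTG. Among pigment genes, 5 of 9 (55.6%) held TCATGTG and 3 (33.3%) CACGTG. Among YAP1, TAZ, TEAD and VGLL factors, 6 of 8 (75.0%) held GGAATG. It was found in 6 of 14 YAP1 targets (42.9%), 8 of 19 Hippo genes (42.1%) and 7 of 34 lysosomal hydrolases (20.6%). The E-box was no less frequent in the YAP1, TAZ, TEAD and VGLL factors (3 of 8, 37.5%). It was found in 5 of 19 Hippo genes (26.3%), 4 of 20 lysosomal membrane genes and 2 of 13 TFE3-linked genes (15.4%). A match describes these letters only and shows no binding.

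The other members of the MiT/TFE system moved in both directions. Tfeb rose from 7.27, 7.25 and 10.9 to 25.03, 21.3 and 25.6 CPM, a log2 difference of 1.503 ± 0.23 (edgeR adjusted p = 2.19e-04). Mitf did not pass the test, at 8.704, 7.79 and 9.68 CPM in naive cortex and 12.2, 4.83 and 10.7 CPM in the tumours. Tfec had 0 counts in naive cortex and 1.06, 0.177 and 3.67 CPM in the tumours, at least 38.3-fold higher against a floor of 3 counts over the naive group. Among the regulators that tether TFE3 at the lysosome, the folliculin partner Fnip2 rose by 2.57 ± 0.21 and the small GTPase Rragc by 1.37 ± 0.17 on the log2 scale. In contrast Rragb had a log2 difference of −2.304 ± 0.36 and Mtor, the kinase of mTORC1, one of −1.05 ± 0.15. Over all genes tested 40.6% were higher and 30.0% lower, with a median of 0.23. Of the 16 factors and regulators in all, Tfe3 itself included, 7 were higher and 4 lower, near those shares, with a median of 0.37. This split depended on scaling: with library sizes alone, with relative log expression factors and with DESeq2 it was 7 higher and 7 lower, as it was without naive replicate 1 and without YAP1-TFE3 replicate 2.

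Of the 40 lysosomal hydrolases and their activators, 33 were higher and 3 lower (median log2 difference 2.399). Cathepsin L (Ctsl), a cysteine protease, stood at 113, 106 and 116 CPM in naive cortex and 5214, 4003 and 4128 CPM in the tumours, a log2 difference of 5.32 ± 0.27 (edgeR adjusted p = 5.01e-07). Cathepsin D (Ctsd; chromosome 7, 142375910 to 142387827), the main aspartic protease, stood at 399, 381 and 412 CPM in naive cortex and 9731, 7192 and 7813 CPM in the tumours. All tumour libraries lay above all naive libraries for both cathepsins. Alpha-galactosidase (Gla; chromosome X, 134588169 to 134601005), which is lacking in Fabry disease, rose from 20.2, 18.5 and 16.6 to 193, 129.7 and 127 CPM, a log2 difference of 3.03 ± 0.22. The sphingolipid enzymes Smpd1 and Asah1 rose by 2.64 ± 0.21 and 3.62 ± 0.22 on the log2 scale. The 3 members that fell were the sulphatase Ids (−2.96 ± 0.31), the alpha-glucosidase Gaa (−1.08 ± 0.24) and the acid phosphatase Acp2 (−0.32 ± 0.11), whose call was lost without naive replicate 3. Macrophage markers, summed over 17 genes, rose in the same libraries from 65.1, 77.9 and 54.5 to 1915, 1561 and 2484 CPM, and their part in the rise of the hydrolases was not tested. Against the other tumours the hydrolases were divided, with 15 higher and 9 lower than in YAP1-MAMLD1-dR3R1 tumours (39.5% of all genes tested were called there, 22.6% higher and 16.9% lower) and 23 higher and 4 lower than in YAP1-FAM118B tumours (51.7% of all genes called, 28.0% higher and 23.7% lower). Cathepsin K (Ctsk), the protease of osteoclasts and a marker of several TFE3 tumours, was at 4.56, 5.28 and 3.34 CPM in naive cortex and 10.9, 1.68 and 1.997 CPM in YAP1-TFE3 tumours, which did not pass the test, but at 1953 ± 1845 CPM (SD, n = 3) in YAP1-FAM118B tumours (log2 difference −8.65 ± 1.76, edgeR adjusted p = 0.00268).

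Of lysosomal membrane proteins, 17 of 22 were higher and 2 lower (median 1.57); Gpnmb is among them and among the genes linked to TFE3 tumours. Galectin-3 (Lgals3), which binds damaged lysosomes and is counted below with the genes of disease-associated microglia, rose from 2.18, 1.09 and 1.36 to 1939, 1194 and 1847 CPM, with no overlap between the groups. The subunits of the vacuolar proton pump showed no common direction: 7 of 20 were higher, 8 were lower and the median was −0.21. Of all genes tested 40.6% were higher and 30.0% lower, with a median of 0.23. Atp6v0d2, the d2 subunit, had 2 counts in all of naive cortex and 71.4, 189 and 25.2 CPM in the tumours, a ratio of 3436 (95% counting interval 951 to 28379). Tcirg1, the a3 subunit, rose by 2.71 ± 0.48 on the log2 scale. The subunits that fell included Atp6v1g2, a brain form, from 459.6, 441 and 339 to 6.37, 43.6 and 5.48 CPM, and the catalytic Atp6v1a, from 708, 693 and 676 to 371, 396 and 422 CPM. Neuronal markers fell in the same libraries, by the sums given above; their part in the lower level of these subunits was not tested.

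Autophagy genes moved in both directions, with 8 of 29 higher, 9 lower and a median of 0.01. Of all genes tested 40.6% were higher and 30.0% lower, with a median of 0.23, so that the count of lower genes was near its share. With relative log expression factors, with library sizes alone and with no filter the counts were 6 higher and 10 lower, and with DESeq2 7 and 11. The receptor gene Optn rose from 20.5, 19.6 and 27.5 to 176, 152 and 134 CPM (log2 difference 2.77 ± 0.18, edgeR adjusted p = 1.69e-06), and the receptor gene Sqstm1 had a difference of 0.85 ± 0.14. Of the genes of the ATG8 family, which coat autophagosomes, Gabarap (1.25 ± 0.14) and Gabarapl2 (1.23 ± 0.23) rose, and Gabarapl1 (−1.07 ± 0.24) and Map1lc3a (−1.21 ± 0.201) fell. Related genes of 1 conjugation system thus lay on both sides of naive cortex.

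Pigment cell genes, targets of MITF in melanocytes, rose, several of them from near zero. Of the 14 genes listed, Tyr was not tested. All 13 tested members were higher (10 with every tumour library above every naive one), with a median log2 difference of 6.79, and summed over the list the naive libraries held 36.3, 32.7 and 43.4 CPM and the tumours 3039, 1828 and 999 CPM. Pmel (chromosome 10, 128695888 to 128720238), which forms the fibrils of the melanosome, stood at 0.739, 0.335 and 1.14 CPM in naive cortex and 2268, 290.4 and 379.99 CPM in the tumours (log2 difference 10.37 ± 1.07, edgeR adjusted p = 2.11e-05). Oca2, a melanosomal transporter, stood at 1.19, 0.335 and 1.19 CPM in naive cortex and 366, 339 and 202 CPM in the tumours. Trpm1 (chromosome 7, 64153835 to 64269772), a cation channel of melanocytes and retina, stood at 0.328, 0.0838 and 0.528 CPM in naive cortex and 185, 375 and 97.9 CPM in the tumours. Slc24a5, an exchanger of the melanosome, changed least (0.61 ± 0.22) and lost its call in 12 of the 14 alternatives, which left 10 to 13 members called. Pmel, Oca2 and Trpm1 were high in all tumour libraries and were also higher than in both other tumours (log2 differences for Pmel of 9.002 and 9.25).

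Other pigment genes differed between the tumours. Dct, an enzyme of melanin synthesis, was at 2.46, 291 and 1.02 CPM in the tumours and 0.903, 1.21 and 0.528 CPM in naive cortex, and Tyrp1, a related enzyme, at 5.31, 323 and 1.58 CPM in the tumours and 1.396, 0.6702 and 1.804 CPM in naive cortex. Both were high in YAP1-TFE3 replicate 2 alone. The call of either was lost without that library, and that of Tyrp1 also without any one of the naive libraries. The transporter gene Slc45a2 was at 93.3, 40.1 and 0.0929 CPM in the tumours, with replicate 3 at the level of naive cortex (0.205, 0.293 and 0.21997 CPM). Mlana, a melanosomal membrane protein and melanocyte marker, reached 1.78, 30.1 and 75.8 CPM against 0.123, 0 and 0 CPM in naive cortex, with replicate 1 the lowest tumour.

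Genes of oxidative phosphorylation were higher, most by less than 2-fold. Of 79 nuclear-encoded subunits tested, 62 were higher and 2 lower, with a median log2 difference of 0.6998. By complex, 24 of 36 subunits of complex I, 3 of 4 of complex II, 8 of 8 of complex III, 13 of 15 of complex IV and 14 of 16 of complex V were higher. The catalytic ATP synthase subunit Atp5b stood at 1189.6, 1244 and 1245 CPM in naive cortex and 3036, 3089 and 4558 CPM in the tumours. The groups did not overlap, with a log2 difference of 1.54 ± 0.18 (edgeR adjusted p = 4.65e-05). A pair of tissue-restricted subunits of complex IV rose far more, Cox7a1, the form of heart and muscle, by 4.16 ± 0.41 and Cox6b2, the form of testis, by 5.23 ± 0.73. Ndufb3 (−0.33 ± 0.11) and Atp5s (−1.17 ± 0.21) were lower, although the call of Ndufb3 was lost without naive replicate 2. Against the other tumours 69 subunits were higher and 1 lower (YAP1-MAMLD1-dR3R1) and 66 higher and 1 lower (YAP1-FAM118B), where 22.6% and 28.0% of all genes were higher. The count against naive cortex moved with scaling and with single libraries. It was 51 higher and 6 lower on library sizes alone and 44 higher and 4 lower without naive replicate 1. The counts against the other tumours were not repeated under the alternatives.

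Other mitochondrial genes moved with the respiratory chain. Of 17 tested genes of the citric acid cycle 12 were higher and 1 lower, and of 77 mitochondrial ribosomal proteins 54 and 3. Leaving out 1 library at a time, 37 to 50 of these ribosomal proteins were higher. Idh2, the mitochondrial NADP-dependent isocitrate dehydrogenase, rose from 34.7, 36.3 and 32.6 to 477, 393 and 389 CPM, and all tumour libraries exceeded all naive ones. Ppargc1a (chromosome 5, 51454249 to 52115853), the co-activator that drives mitochondrial biogenesis, rose from 69.7, 62.96 and 66.2 to 376, 366 and 483 CPM (log2 difference 2.62 ± 0.45, edgeR adjusted p = 4.84e-04), while the YAP1-MAMLD1-dR3R1 tumours stood at 11.7 ± 7.59 CPM and the YAP1-FAM118B tumours at 34.2 ± 12.3 CPM (SD, n = 3 each; log2 differences 5.12 ± 0.501 and 3.58 ± 0.47). Of its partners among nuclear receptors, Esrrb rose by 2.62 ± 0.496 and Esrrg had a difference of −3.44 ± 0.82. The related co-activator Ppargc1b also fell (−2.03 ± 0.35).

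**Figure D3:**
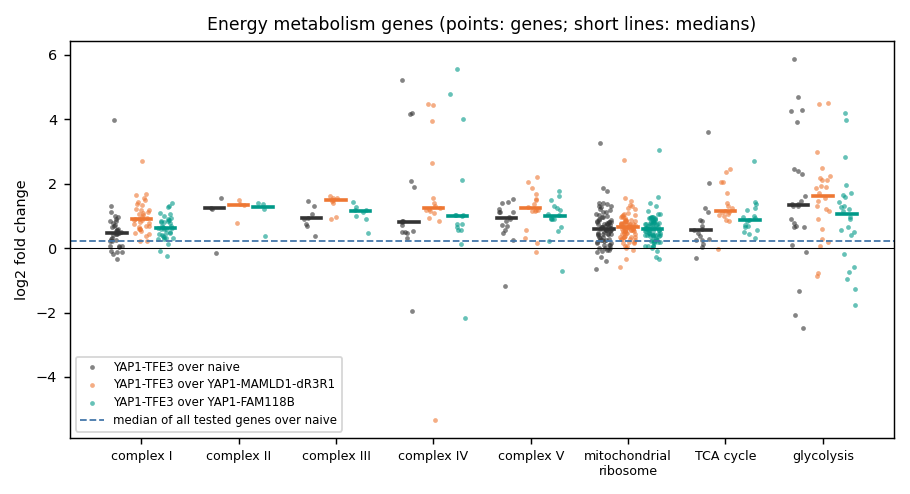
Log2 fold change of tested genes of energy metabolism on the vertical axis, by respiratory complex or list, for YAP1-TFE3 over naive (black), over YAP1-MAMLD1-dR3R1 (orange) and over YAP1-FAM118B (green); points are genes, short lines medians, and the dashed line is the median of all genes over naive. The highest point over naive among glycolytic genes is Hk2 at 5.88.

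Glycolytic genes rose as a group while the brain forms of several enzymes fell. Of 24 genes 19 were higher and 3 lower (median 1.34). Hexokinase 2 (Hk2), the inducible form, rose from 4.39, 3.81 and 3.87 to 230.1, 230.4 and 252 CPM, a log2 difference of 5.88 ± 0.18. The glucose transporter genes Slc2a1 (2.302 ± 0.27) and Slc2a3 (2.38 ± 0.27) and the lactate transporter gene Slc16a1 (3.92 ± 0.42) also rose. The neuronal enolase Eno2 fell from 1185, 1147 and 1061 to 281, 363 and 161 CPM, the brain aldolase Aldoc from 765, 781 and 725 to 287, 481 and 134 CPM, and the muscle phosphofructokinase Pfkm had a log2 difference of −2.48 ± 0.27. The neuronal sum given above fell in the same libraries. So did the sum of 14 astrocyte markers, from 5819, 6014 and 5196 to 2660, 3872 and 2096 CPM. The part of either in these losses was not tested. Of 18 genes induced by hypoxia, 10 were higher and 1 lower. Among them Vegfa, the endothelial growth factor, stood at 43.03, 48.3 and 45.3 CPM in naive cortex and 721, 480.5 and 356 CPM in the tumours, and the carbonic anhydrase Car9 rose by 3.08 ± 0.53. Pdk1 (−0.07), Bnip3 (0.54) and Egln3 (0.79) did not pass the test. Of 22 genes of cholesterol synthesis and uptake, 7 were higher than in naive cortex and 1 lower (Srebf2, −0.43 ± 0.17, a call lost in 8 of the 14 alternatives). Against the other tumours, 17 were higher than with YAP1-MAMLD1-dR3R1 and 17 than with YAP1-FAM118B, where 22.6% and 28.0% of all genes were higher.

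Amino acid and oxidative stress genes rose in part. Of 20 genes of amino acid supply and the integrated stress response 15 were higher and 2 lower. Trib3, a pseudokinase induced by that response, stood at 0.164, 0.293 and 0.132 CPM in naive cortex and 11.3, 7.89 and 9.61 CPM in the tumours. Asparagine synthetase (Asns), another target of it, fell from 106, 99.4 and 95.2 to 16.8, 32.7 and 18.99 CPM, and the cystine transporter gene Slc7a11 from 55.7, 79.8 and 74.5 to 16.5, 23.5 and 20.2 CPM. Atf4, the factor that drives the response, did not pass the test (0.299). Of 11 genes of oxidative stress and iron 7 were higher and 1 lower, with haem oxygenase (Hmox1) rising from 4.35, 5.03 and 4.53 to 434, 92.2 and 184 CPM and Nqo1, a standard target of NRF2, not passing the test (−0.35).

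Genes of the YAP1, TAZ, TEAD and VGLL factors rose together. Of 9 of these factors tested 8 were higher and none was lower, at a median log2 difference of 2.92. The list includes Yap1 itself, and whether reads of the fusion were counted on it was not tested. Tead1, a TEAD of brain, stood at 20.5, 22.2 and 27.98 CPM in naive cortex and 403, 393 and 429 CPM in the tumours. Tead4 stood at 0.164, 1.01 and 0.616 CPM in naive cortex and 58.6, 48.2 and 35.7 CPM in the tumours, a log2 difference of 6.31 ± 0.84 (edgeR adjusted p = 1.05e-04). Neither gene's groups overlapped. Of 22 regulators of the Hippo pathway 18 were higher and 2 lower (median 1.83). Most of these are known to restrain YAP1, and some are known targets of it. Ajuba, a LIM protein that inhibits LATS, rose from 2.299, 1.84 and 2.38 to 240.4, 195 and 149.7 CPM. Ptpn14, a phosphatase that binds YAP1, rose by 5.74 ± 0.48, and the scaffold genes Wwc1 and Wwc2 by 1.99 ± 0.23 and 2.53 ± 0.25. Ajuba was also higher than in the YAP1-MAMLD1-dR3R1 tumours by 2.93 ± 0.41 and the YAP1-FAM118B tumours by 3.08 ± 0.42.

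Of 22 known YAP1 targets, 16 were higher and 4 lower. Ankrd1 (chromosome 19, 36111965 to 36119844), a nuclear muscle protein, rose from 0.657, 0.126 and 0.132 to 909, 642 and 631 CPM, a log2 difference of 11.18 ± 0.94. Ctgf, a secreted matricellular factor, stood at 40.5, 35.4 and 20.9 CPM in naive cortex and 1136, 1394 and 136 CPM in the tumours. Replicate 3 was the lowest tumour for Ctgf, and the groups did not overlap. The targets that fell were Asap1 (−1.01 ± 0.21), Fjx1 (−1.11 ± 0.38), Arhgef17 (−1.53 ± 0.51) and Rbms3 (−1.53 ± 0.498). The call of Arhgef17 was lost in a fit on the 6 libraries alone, which changed the scaling, the filter and the spread together, and that of Rbms3 without naive replicate 3.

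**Figure D4:**
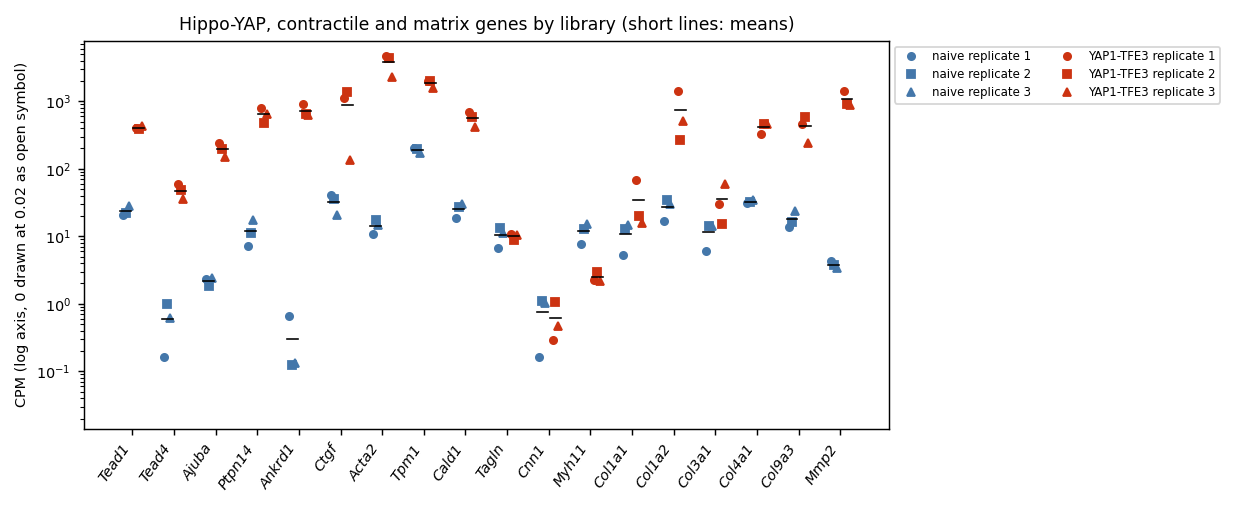
Level of Hippo-YAP, contractile and matrix genes in each library, in CPM on a log axis; points are single libraries (blue naive, red YAP1-TFE3, symbol by replicate) and short lines are means. Ankrd1 stood at 909, 642 and 631 CPM in the YAP1-TFE3 libraries and 0.657, 0.126 and 0.132 CPM in the naive libraries.

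Cell division genes were higher almost without exception. All 29 mitotic genes were higher (median 6.09), as were 25 of 26 replication genes (median 3.67). The mitotic kinase Cdk1 stood at 0.246, 0.293 and 0.748 CPM in naive cortex and 149.9, 119 and 157 CPM in the tumours. The ribonucleotide reductase subunit Rrm2 stood at 3.98, 2.43 and 2.64 CPM in naive cortex and 571, 1002 and 519 CPM in the tumours. In both, the lowest tumour library lay far above the highest naive library. The G1 cyclin Ccnd1 rose with a log2 difference of 5.69 ± 0.28 (edgeR adjusted p = 5.01e-07). The inhibitors Cdkn2b (5.23 ± 0.28) and Cdkn2c (5.44 ± 0.29) rose as well. Of the Myc family, Myc rose by 3.103 ± 0.25 and Mycn had a difference of −2.804 ± 0.38. Against the other tumours, 28 mitotic genes were higher than with YAP1-MAMLD1-dR3R1 and 29 than with YAP1-FAM118B, and none was lower. Over all genes 22.6% and 28.0% were higher in these contrasts.

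Matrix genes moved less uniformly. Of 44 collagen genes 17 were higher and 6 lower, and of 20 other matrix genes 15 were higher. Over all genes tested against naive cortex, 40.6% were higher and 30.0% lower. The basement membrane collagen Col4a1 stood at 30.7, 32.05 and 34.01 CPM in naive cortex and 332, 456 and 468 CPM in the tumours, with no overlap. The fibrillar collagen Col1a1 stood at 5.296, 12.9 and 14.7 CPM in naive cortex and 68.9, 19.9 and 15.8 CPM in the tumours and did not pass the test. In the other tumours Col1a1 reached 1168 ± 507 CPM (YAP1-MAMLD1-dR3R1) and 3086 ± 2206 CPM (YAP1-FAM118B; SD, n = 3 each), log2 differences of −5.07 ± 0.901 and −6.47 ± 0.96. Over the whole list, 24 collagens were lower and 5 higher than in YAP1-MAMLD1-dR3R1 tumours, and 23 lower and 3 higher than in YAP1-FAM118B tumours. Over all genes 16.9% and 23.7% were lower. Of the proteases that remodel matrix, 19 of 39 were higher and 9 lower. The gelatinase Mmp2 rose from 4.27, 3.73 and 3.39 to 1423, 917 and 871 CPM, and Adamts20 had a log2 difference of −3.52 ± 0.65.

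The contractile genes of smooth muscle were split. Alpha smooth muscle actin (Acta2) stood at 10.96, 17.6 and 14.6 CPM in naive cortex and 4656, 4396 and 2249 CPM in the tumours, and Tpm1, a tropomyosin, rose by 3.29 ± 0.19. Tagln (−0.05), Cnn1 (−0.31) and Myl9 (−0.75) did not pass the test, and the myosin heavy chain Myh11 fell (−2.27 ± 0.64). In all 6 of 15 were higher and 2 lower, where 40.6% of all genes tested were higher and 30.0% lower. The count of higher contractile genes was thus near the share of all genes. Beside the same shares, 5 of 14 fibroblast markers were higher and 3 lower, of 10 pericyte markers 4 and 1, and of 20 endothelial markers 10 and 2.

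Transcription factors of mesenchyme were divided. Of 14 tested 8 were higher and 1 lower. Runx1, a factor of blood and mesenchymal cells, stood at 0.657, 0.419 and 0.132 CPM in naive cortex and 63.6, 45.1 and 78.8 CPM in the tumours, and Foxf1, of visceral mesoderm, at 0.287, 0.838 and 1.0998 CPM in naive cortex and 74.9, 38.05 and 46.5 CPM in the tumours. Neither overlapped between the groups. Foxc2, of mesoderm and vessels, stood at 0.862, 1.84 and 1.01 CPM in naive cortex and 0, 0 and 0.0464 CPM in the tumours. Twist1 (−2.24) did not pass the test.

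Growth factor systems changed member by member. The EGF receptor family ligand gene Hbegf rose from 11.5, 12.1 and 14.9 to 346, 166 and 602 CPM and the receptor gene Erbb2 by 4.01 ± 0.46, while Erbb4, a receptor of neurons, had a difference of −2.51 ± 0.36 and its ligand gene Nrg3 one of −4.89 ± 1.34. The hepatocyte growth factor receptor Met rose (2.68 ± 0.56) and its ligand Hgf fell (−1.49 ± 0.34). In the insulin-like growth factor system Igf2r, which is also the lysosomal mannose 6-phosphate receptor, rose from 45.5, 40.2 and 49.98 to 842, 898 and 372 CPM, and the binding protein gene Igfbp3 rose by 5.21 ± 0.38. Igf2 was lower (−2.904 ± 1.11), but its call was lost without naive replicate 2 or 3 and without YAP1-TFE3 replicate 2 or 3. Of 20 genes of the TGF-beta and BMP systems 12 were higher and 4 lower. Among the lower were the BMP antagonists Nog (−4.33 ± 0.29) and Chrd (−1.67 ± 0.53). Of 38 Wnt genes 13 were higher and 13 lower, and of 20 Notch genes 9 and 3. Over all genes tested 40.6% were higher and 30.0% lower against naive cortex.

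Neuronal genes fell nearly without exception, 29 of 30 with none higher (median −4.63). The glutamate transporter Slc17a7 of cortical excitatory neurons stood at 1627, 1375 and 708 CPM in naive cortex and 1.59, 256 and 0.511 CPM in the tumours. It was the 1 gene of the list that did not pass the test (edgeR adjusted p = 0.0993), since YAP1-TFE3 replicate 2 stood far above the other tumours, and it passed without that library. All 14 myelin genes fell as well (median −4.19; 13 with no overlap, and Cnp lost its call without naive replicate 3 and under the replicate block), their sum being 8839, 6387 and 12742 CPM in naive cortex and 989.96, 628 and 718 CPM in the tumours. Genes of neural stem cells moved in the opposite direction, with 10 of 16 higher and 1 lower. Vimentin (Vim) stood at 30.7, 38.9 and 39.7 CPM in naive cortex and 3082, 3018 and 2364 CPM in the tumours, with no overlap, and Sox9, a factor of glial progenitors, rose by 2.16 ± 0.44. Dcx, of migrating neuroblasts, was lower (−3.08 ± 0.71).

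Astrocyte genes were not all lost. Of 14 genes 9 were lower and 3 higher. The glutamate transporter Slc1a2 fell from 3214, 3057 and 2094 to 87.8, 396 and 44.2 CPM. Aldh1l1, a folate enzyme used as an astrocyte marker, stood at 66.5, 65.7 and 51.3 CPM in naive cortex and 977, 888 and 447 CPM in the tumours, a log2 difference of 3.66 ± 0.37 (edgeR adjusted p = 1.80e-05). All tumour libraries exceeded all naive libraries for it. Acsbg1 (1.66 ± 0.197) and S100b (1.41 ± 0.27) rose too. Markers of oligodendrocyte precursors were divided likewise. Matn4 rose from 10.8, 10.3 and 10.4 to 816, 801 and 389 CPM and the lineage factor Sox10 fell from 42.5, 40.1 and 56.9 to 11.3, 24.8 and 22.7 CPM. The call of Sox10 was lost without naive replicate 3 and without YAP1-TFE3 replicate 1.

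Cilia genes, which mark ependymal cells, were more often lower than higher: 8 of 19 fell and 2 rose. The master factor of motile cilia, Foxj1, was nevertheless one of those that rose, from 5.501, 6.79 and 18.7 to 231, 178 and 99.1 CPM (log2 difference 4.04 ± 0.57, edgeR adjusted p = 1.49e-04), with Dnah11, a dynein chain of the axoneme (1.63 ± 0.42). Choroid plexus genes summed to 12.1, 91.2 and 1727 CPM in naive cortex and 1026, 269 and 21.3 CPM in the tumours, and the groups overlapped.

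**Figure D5:**
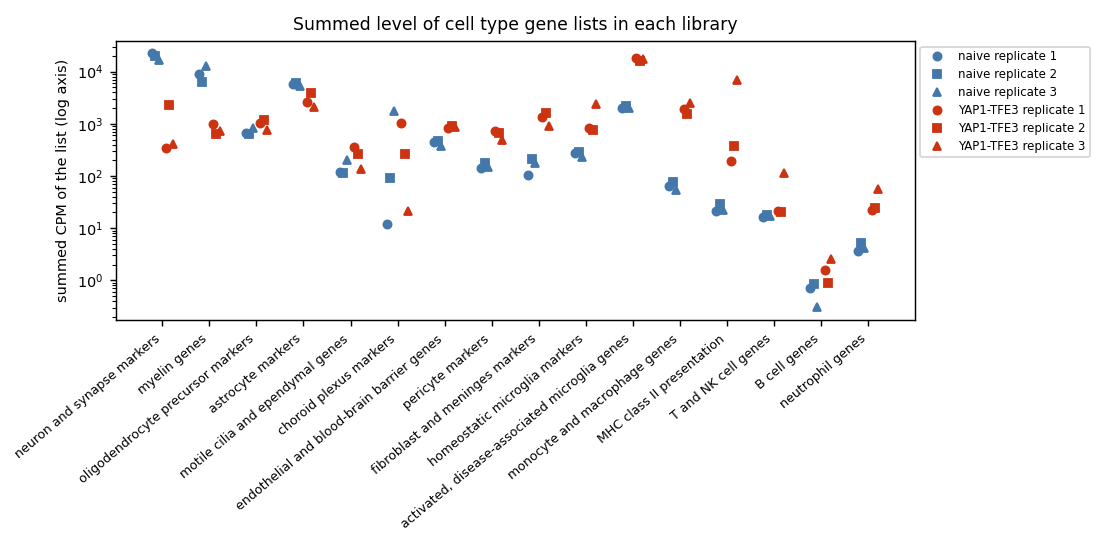
Summed level of cell type marker lists in each library, in CPM on a log axis; points are single libraries (blue naive, red YAP1-TFE3, symbol by replicate). The macrophage sum is 1915, 1561 and 2484 CPM in the YAP1-TFE3 libraries and 65.1, 77.9 and 54.5 CPM in the naive libraries.

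Markers of macrophages were far higher. Their sum was 65.1, 77.9 and 54.5 CPM in naive cortex and 1915, 1561 and 2484 CPM in the tumours, and 14 of 17 genes were higher and 1 lower. All 14 genes of disease-associated microglia were higher (median 4.896), Gpnmb and Lgals3 included. The C-type lectin receptor gene Clec7a had 1 count in naive cortex and 31.5, 32.2 and 121 CPM in the tumours, a ratio of 4368 (95% counting interval 783 to 172555). The lipoprotein lipase gene Lpl rose from 15.6, 31.9 and 27.3 to 829.98, 952 and 977 CPM. P2ry12, a receptor of resting microglia, had 35.02, 41.1 and 22.6 CPM in naive cortex and 22.1, 23.4 and 52.1 CPM in the tumours and did not pass the test. Other microglial markers rose, 8 of 11 in all, with Tmem119 going from 18.2, 19.7 and 17.8 to 48.1, 58.6 and 178 CPM. Leaving out 1 library at a time gave 5 to 7, with 5 without naive replicate 1, naive replicate 3 or YAP1-TFE3 replicate 3. Microglial genes were highest in YAP1-TFE3 replicate 3, their sum being 848, 774 and 2431 CPM. Gpnmb, Lgals3 and Ctsd, described above, are abundant in macrophages also, and the part of macrophages in their rise was not tested.

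Genes of antigen presentation and interferon response rose. All 8 MHC class II genes were higher, their sum being 21.2, 28.9 and 22.7 CPM in naive cortex and 196, 374 and 6813 CPM in the tumours. Cd74, the invariant chain, stood at 4.598, 8.001 and 6.86 CPM in naive cortex and 77.9, 182 and 3277 CPM in the tumours. The class II regulator Ciita lost its call without YAP1-TFE3 replicate 3 (edgeR adjusted p = 0.0513). Replicate 3 held far more class II RNA than the other tumours, and all tumours lay above all naive libraries. All 13 MHC class I genes and all 18 interferon-stimulated genes were higher, the latter 17 without YAP1-TFE3 replicate 3. Bst2, an antiviral membrane protein, rose from 3.04, 3.64 and 6.203 to 913, 732 and 1009 CPM and was above both other tumours (1.65 ± 0.35 and 3.76 ± 0.38). The 18 interferon-stimulated genes as a list were not: 3 were higher and 4 lower than in YAP1-MAMLD1-dR3R1 tumours (22.6% and 16.9% of all genes). Against YAP1-FAM118B tumours 5 were higher and 0 lower (28.0% and 23.7% of all genes).

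Calls of lymphocyte genes rested largely on YAP1-TFE3 replicate 3. Markers of T and natural killer cells summed to 16.5, 17.8 and 16.8 CPM in naive cortex and 21.6, 20.8 and 113 CPM in the tumours, and 9 of 17 were called higher. Without YAP1-TFE3 replicate 3 the count was 3 higher and 1 lower, and in a fit on the 6 libraries alone, where 5 of the genes passed the filter, it was 2 and 0. The 3 tested B cell markers summed to 0.698, 0.838 and 0.308 CPM in naive cortex and 1.54, 0.887 and 2.55 CPM in the tumours, and none was called. Of 45 genes of chemokines and their receptors 32 were higher and 2 lower, against 19 and 2 without YAP1-TFE3 replicate 3. Of 16 complement genes 13 were higher and 0 lower. Of 12 immune checkpoint genes 9 were higher, among them Havcr2, the receptor TIM-3 of macrophages and T cells, from 3.69, 3.602 and 3.695 to 30.3, 20.1 and 74.02 CPM.

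Among genes in none of the lists, those with the largest rises included a group of mast cell proteases. Mcpt2 had no count in naive cortex and 11.8, 0.177 and 20.2 CPM in the tumours, at least 249-fold higher against a floor of 3 counts over the naive group. Tpsb2, a tryptase, had 6.41, 0.0443 and 17.2 CPM, at least 184-fold. Both were near 0 in YAP1-TFE3 replicate 2. The succinate receptor gene Sucnr1, at 9.26, 7.58 and 1.67 CPM, was at least 146-fold higher. Ankrd23, a muscle ankyrin repeat protein related to Ankrd1, rose from 2.38, 0.461 and 1.36 to 2074, 1629 and 1515 CPM, evenly across the tumours. The mitochondrial carrier gene Slc25a48 stood at 0.0821, 0.0419 and 0.04399 CPM in naive cortex and 104, 72.99 and 106 CPM in the tumours. The largest falls included neuronal genes of restricted regions, such as the dopamine transporter Slc6a3, from 73.4, 0.545 and 46.7 to 0.241, 0 and 0.0464 CPM, and the transcription factor Neurod6 of cortical neurons, from 92.003, 104 and 70.1 to 0, 2.75 and 0 CPM. Slc6a3 differed widely among the naive libraries.

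Some genes set the YAP1-TFE3 tumours apart from naive cortex and from both other tumours at once. By the same test 2641 genes (16.1%) were higher than in all 3 other groups and 1263 (7.72%) lower. The highest by the smallest of the 3 differences included Trim63, Pmel, Oca2 and Trpm1, described above, and also Birc7, an inhibitor of apoptosis (livin) known from melanoma. Birc7 stood at 0.246, 0.0838 and 0.308 CPM in naive cortex, 219, 212 and 80.1 CPM in YAP1-TFE3 tumours, 0.1104 ± 0.0753 CPM in YAP1-MAMLD1-dR3R1 tumours and 0.173 ± 0.127 CPM in YAP1-FAM118B tumours (SD, n = 3). Tph1, the enzyme of serotonin synthesis outside neurons, reached 558, 243 and 388 CPM against 1.19, 0.838 and 0.176 CPM in naive cortex. Myom2, a protein of the muscle sarcomere, stood at 0.287, 0.461 and 0 CPM in naive cortex and 59.6, 175 and 74.2 CPM in the tumours. On the lower side, Sbspon, a secreted matrix protein, had no count in the tumours and 0.739, 1.01 and 2.02 CPM in naive cortex, at least 26.8-fold lower. The scavenger receptor Cd163 of perivascular macrophages stood at 1.31, 2.43 and 1.45 CPM in naive cortex, 0, 0 and 0.0464 CPM in YAP1-TFE3 tumours and 4.78 ± 7.502 and 13.9 ± 12.9 CPM in the other tumours. Its call against naive cortex was lost without any one of the YAP1-TFE3 libraries. Among macrophage markers Cd163 was thus low where the summed list was high.

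The tumours themselves differed widely in a few genes, chosen by the spread between their libraries. Wnt8b, a Wnt ligand of the cortical hem, stood at 52.2, 0.266 and 70.7 CPM in the tumours. Ttr reached 947, 215 and 2.83 CPM and the Wnt modulator gene Sfrp2 55.99, 45.98 and 0.186 CPM. Wnt8b was near 0 in replicate 2, and Ttr and Sfrp2 were lowest in replicate 3. The sources used here do not say where in the brain each tumour lay.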

How the data were processed

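RNA of 12 mouse libraries was measured by sequencing, and the deposited files hold whole-number read counts per gene symbol. The authors counted reads with HTSeq on the mm10 build, per the submitters' processing notes, with no version named there; the aligner and the strand setting were not given in the sources used here. Reads of genes that overlap or have near-identical copies may therefore be shared or lost, and no strand can be read from the counts.

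From these counts, 16364 of 24421 genes passed edgeR's filterByExpr (minimum count 10); 4096 had no count in any library. All 12 libraries entered 1 quasi-likelihood fit (edgeR 4.0.16, limma 3.58.1, R 4.3.3) with TMM scaling and no covariate, so that the 4 groups shared 1 estimate of the spread (common biological coefficient of variation 0.389). The contrasts were YAP1-TFE3 over naive, which is the main one, and YAP1-TFE3 over each other tumour. P-values were adjusted by Benjamini-Hochberg over all genes tested at 0.05. The script was also run on simulated counts with few changed genes, equally many raised and lowered. That setting differs from these data, where most genes were called, and does not test their scaling or calls. For a group with no count, a fold is a lower bound against 3 counts over the group, and for 1 to 3 counts a ratio with an exact 95% interval is given, which covers counting error only. A floor of 3 counts corresponded to 0.116 to 0.145 CPM per library on the scaled library sizes, which the folds and ratios also use. No pair of libraries held identical counts.

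The 63 gene lists (1261 symbols), the tests and the naming rule were chosen with earlier results of these data known. Named genes are members marked in a list, up to 4 members by adjusted p, up to 3 called against the majority, and the highest and lowest of a list. Outside the lists they are up to 15 per direction by fold change, up to 10 per direction that stand apart from all 3 other groups, and up to 10 with the widest spread among the YAP1-TFE3 libraries. Outside the lists, predicted genes, Rik clones and sex-linked genes stay unnamed under the rule. Not every gene that the rule names is reported here. Alternatives were other scalings, other filters on low counts, a fit on 6 libraries, a replicate block, a test against a 2-fold change, DESeq2 1.42.0 and leaving out each library. Promoter windows (300 bases) and gene coordinates came from RefSeq on GRCm38.p6, the assembly that mm10 names.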

Additional observations from a re-analysis of the deposited data

Results flagged for a closer look

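Some genes moved one way against naive cortex in YAP1-TFE3 tumours and the other way in another tumour type, and the direct contrast of the tumours passed edgeR's quasi-likelihood test, in which all groups share the estimate of the spread. Among 240 marked list members that were called against naive cortex and reached a mean of 20 CPM in some group, 4 did so by at least 2-fold each way. Pfkp, Ppargc1a and Slc2a3 were higher with YAP1-TFE3 than with YAP1-MAMLD1-dR3R1. Pfkp, the platelet phosphofructokinase, had a log2 difference of 2.49 ± 0.26 (edgeR adjusted p = 1.01e-04). Ppargc1a differed by 5.12 ± 0.501 (edgeR adjusted p = 6.35e-05), and Slc2a3, the neuronal glucose transporter, by 4.51 ± 0.295 (edgeR adjusted p = 9.49e-06). Each rose against naive cortex with YAP1-TFE3 (by 1.29, 2.62 and 2.38) and fell against it with YAP1-MAMLD1-dR3R1. Sox10, a factor of the oligodendrocyte lineage, went the other way. It was lower with YAP1-TFE3 than with YAP1-MAMLD1-dR3R1, with a log2 difference of −3.28 ± 0.49 (edgeR adjusted p = 6.95e-04), and than with YAP1-FAM118B, with one of −2.82 ± 0.48 (edgeR adjusted p = 0.00108). Its fall against naive cortex (−1.25) lost its call without naive replicate 3 and without YAP1-TFE3 replicate 1.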

How the results depend on the processing

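The number of genes changed against naive cortex stayed between 10406 and 11991 under every alternative but the test against a 2-fold change, which called 6538 (3617 higher and 2921 lower). Leaving out 1 library at a time gave 10406 to 11137 genes, with 5244 to 6202 higher and 4481 to 5462 lower. Leaving out 1 library gave 4953 to 6667 genes against YAP1-MAMLD1-dR3R1 tumours (6456 with all libraries, 7836 with DESeq2) and 6933 to 7849 against YAP1-FAM118B tumours (8460 and 9239). The share of higher genes fell as low as 40.5% and 37.8% in these 2 tumour contrasts, from 57.2% and 54.2% with all libraries. For no gene list were the counts against the other tumours repeated under the alternatives. With relative log expression factors the median of all genes against naive cortex was 0.07, with library sizes alone 0.03 and with 6 libraries 0.00, and the count of higher genes of oxidative phosphorylation was 56, 51 and 45 there against 62; the 6-library fit also changed the filter and the spread. If the numbers paired the libraries, same-numbered ones might deviate together. Their correlations were −0.10, 0.04 and 0.05, within the −0.13 to 0.12 of differently numbered ones. Not every library correlated best with its own number. With 3 libraries a group, these values cannot settle whether libraries were paired or shared a batch. The fit with the replicate block called 11330 genes. Of 607 named genes 507 were called, 481 of them had a value in each of the 14 alternatives, and 386 of these kept the call in every one. The test against a 2-fold change ended 89 calls, and no gene reversed where it had a value. Levels under the floor of 0.116 to 0.145 CPM cannot be told from 0 at these depths.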
